A study of Mus musculus with 20 samples.

Results

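Salivary glands of C57BL/6J mice were compared between 8 and 4 weeks of age, the step that covers puberty. All arrays whose label gave 8 weeks (5) or 4 weeks (5) were taken, 10 of the 20 arrays analysed here, and the 18194 genes measured on them were followed with 1 probe set per gene. Each array held total RNA of the gland of 1 mouse, freed of lymph nodes, and each was labelled as a separate biological replicate. The mice were untreated, of the C57BL/6J strain and labelled male at both ages, and the 5 mice at 12 and the 5 at 16 weeks entered the fit through the estimate of spread. The congenic strain C57BL/6.NOD-Aec1Aec2, a model of Sjögren's syndrome, was not analysed here. Values are log2 signals made by the authors with RMA, and a log2 fold change is the mean at 8 weeks minus the mean at 4 weeks.

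The submandibular gland of the mouse consists of acini, which make saliva, and of ducts, which modify it. At puberty a stretch of the ducts becomes the granular convoluted tubule, whose cells store kallikreins and growth factors such as epidermal growth factor. Androgens drive this change, together with thyroid hormone, so that the tubules are larger in adult males than in females. The remaining gland stops branching and its cells divide less once it is grown.

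The labels of the mice as males stood against their signals. Xist, the RNA that coats the inactive X chromosome of female cells, ranged in log2 signal from 8.96 to 10.36 over the 10 mice, at percentiles 96.3 to 99.5 of the genes of each array. The Y-linked genes Eif2s3y, Kdm5d, Usp9y and Uty lay at percentiles 0.489 to 3.36, 12.4 to 31.2, 15.8 to 34.3 and 30.9 to 59.4. The log2 fold changes of Xist and Eif2s3y were -0.18 and 0.26 (limma adjusted p = 0.726 and 0.231). The sex given by the labels is therefore not used below.

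Signals of genes typical of the parotid gland and of fat differed between mice of 1 age. Mucl2 and Prol1, secreted products of the submandibular gland, were bright in each mouse, at 13.76 to 14.13 and 13.28 to 13.86. Amy1, the salivary amylase typical of the parotid gland, had log2 signals of 11.80, 5.53, 5.88, 8.83 and 11.71 in the 5 mice at 4 weeks and of 5.82, 9.85, 4.25, 3.98 and 3.81 at 8 weeks. Thus Amy1 was high in mice 1, 4 and 5 at 4 weeks and in mouse 2 at 8 weeks (log2 fold change -3.21, limma adjusted p = 0.193). Among mice at 8 weeks, Smr3a, Cst10 and Bpifa2 were also highest in mouse 2. Dcpp3, a demilune and parotid protein in the mouse, had 10.22, 6.04, 13.78, 13.89 and 14.13 at 4 weeks and 13.18, 12.70, 10.38, 7.48 and 9.52 at 8 weeks. Ucp1, the uncoupling protein of brown fat, was above 7 in mice 3 and 5 at 4 weeks alone, with 7.50 and 7.38 against 4.49 to 5.77 in the other 8. The share of parotid tissue and of fat in each sample was not given, and fewer cells of a type cannot be told apart from less RNA per cell in whole tissue.

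**Figure D1:**
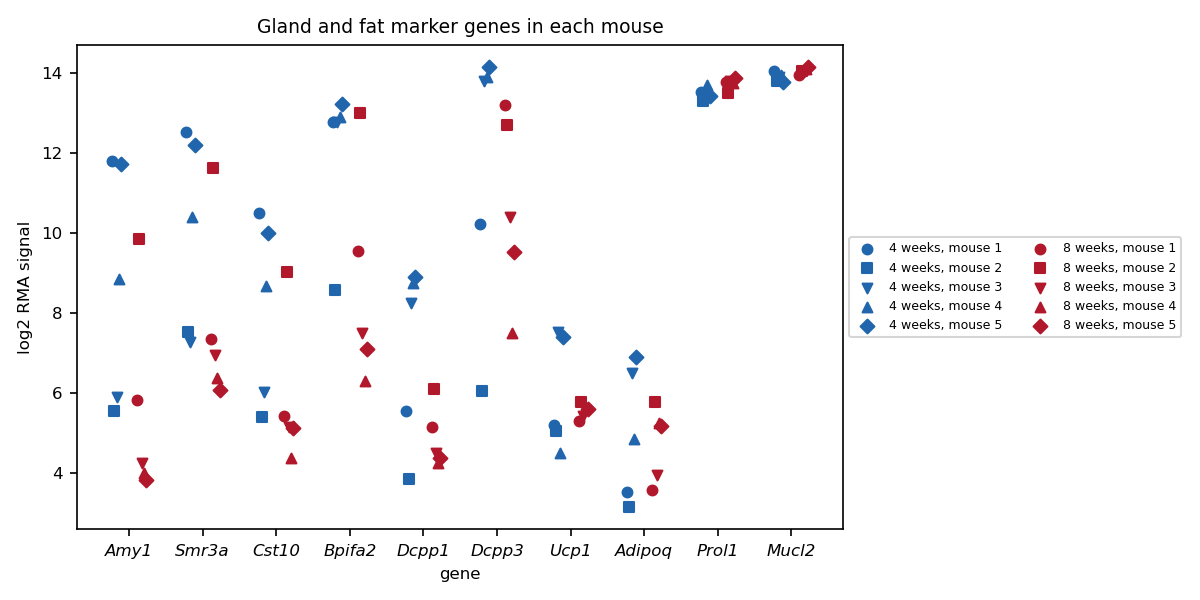
Log2 RMA signal (vertical axis) of 10 marker genes of salivary glands and fat (horizontal axis), with 1 symbol per mouse, blue at 4 weeks and red at 8 weeks. Amy1 lay between 3.81 and 11.80, whereas Prol1 and Mucl2 lay between 13.28 and 14.13 in the 10 mice.

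Arrays also differed in how widely their signals were spread. The standard deviation of gene values was 1.55, 1.55, 1.66, 1.72 and 1.90 at 4 weeks and 1.60, 1.50, 1.44, 1.57 and 1.38 at 8 weeks. Mouse 5 had the widest spread at 4 weeks and the narrowest at 8 weeks. Pearson correlations between the 10 arrays, across genes, lay between 0.792 and 0.983. The signal of the 3′ minus the 5′ probe set of Gapdh, a sign of RNA integrity, was 1.67 to 2.85 at 4 weeks and 1.49 to 3.94 at 8 weeks.

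Genes were called by limma at a Benjamini-Hochberg adjusted p under 0.05. At 8 weeks 593 genes (3.26%) lay above and 752 (4.13%) below their level at 4 weeks, together 7.39% of the genes tested. The change ran with brightness. When genes were ordered into 10 bands by their mean signal, the median log2 fold change fell from 0.18 in the dimmest band to -0.49 in the brightest. Of the genes below the median signal 353 were higher and 155 lower, and of those above it 240 were higher and 597 lower. All genes were therefore also tested on values from which the curve of each array against mean signal had been subtracted. The medians of the bands then lay between -0.03 and 0.02. Without the trend 380 genes were higher (2.09%) and 924 lower (5.08%), together 7.17%. Of all genes 975 (5.36%) passed both tests in the same direction, 304 higher (1.67%) and 671 lower (3.69%). Of the genes below the median signal 117 were higher without the trend, against 353 as deposited.

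**Figure D2:**
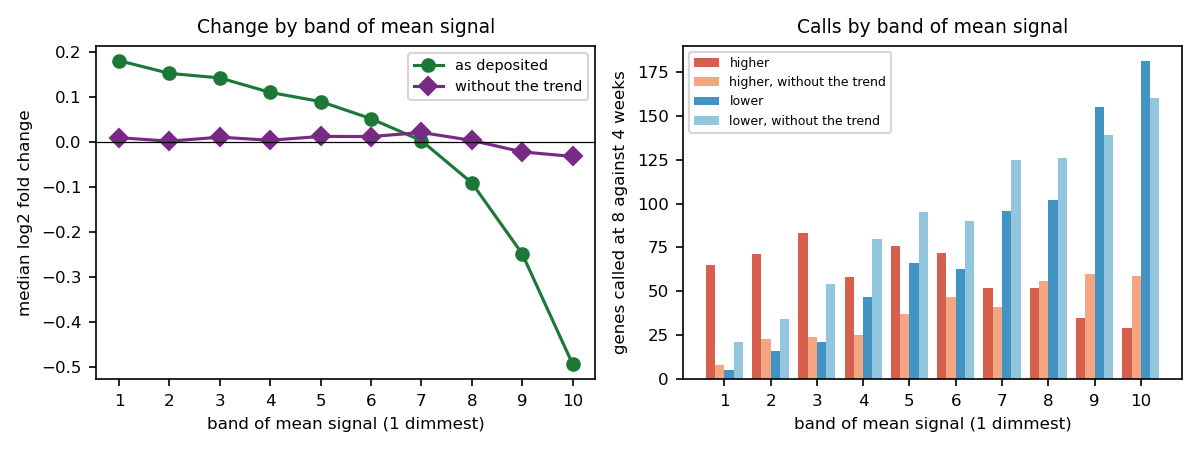
Left, median log2 fold change from 4 to 8 weeks (vertical axis) in 10 bands of mean signal (horizontal axis), as deposited and without the trend. Right, number of genes called higher or lower in each band. The median falls from 0.18 to -0.49 as deposited and stays between -0.03 and 0.02 without the trend, and 65 genes of the dimmest band were called higher as deposited against 8 without it.

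The count of calls rested on single mice, as between 14 and 2694 genes passed when 1 mouse was left out. Only 13 genes (0.0715%) passed in each of the 10 fits that left out 1 mouse, and these 13 also did so without the trend, where 143 genes (0.786%) did, 16 higher and 127 lower. Of the 13, 11 were lower (Psat1, Psph, Mthfd2, Slc7a5, Eif2s2, Col3a1, Postn, Ret, Dusp4, Septin7 and Nr1d1) and 2 higher (Kcnq5 and A830082N09Rik). With the signal spread of each array as a covariate 16 genes passed (0.0879%), and with the Amy1 signal as a covariate 11 passed (0.0605%). Of the 13 genes, 9 were among the former and 11 among the latter. The values at 4 and 8 weeks did not overlap in 5.75% of all genes, and in 5.2% without the trend. Genes that were called and did not overlap made up 3.11%, and 3.18% without the trend.

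Most differences from 4 to 8 weeks did not continue to 12 weeks. Of the 752 genes called lower, 746 (99.2%) had a higher mean at 12 than at 8 weeks, and of the 593 called higher, 575 (97.0%) had a lower one. The 4 kallikreins called higher were among the exceptions. Over all genes the mean at 12 weeks was the higher in 44.1%. From 12 to 16 weeks the mean fell again in 724 of the 752 genes called lower. The spread of signal went the same way, with mean standard deviations of gene values of 1.68, 1.50, 1.64 and 1.51 at 4, 8, 12 and 16 weeks. Whether the levels of these genes follow the spread of the arrays was not tested. All 18 serine and ATF4 genes, 9 aminoacyl-tRNA synthetases, 7 folding genes and 12 vesicle genes that were called lower were among the 746. None of these 4 sets had a member whose mean at 12 weeks exceeded that at 4 weeks. The mice at 8 weeks enter both differences, so these counts are not independent of the calls and describe levels only.

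The largest rises among genes whose ages did not overlap were those of the tubule kallikreins Klk1b5 and Klk1b21. Tubule kallikreins are serine proteases of saliva encoded side by side on chromosome 7. The probe sets of 9 kallikreins and of Egf and Tgfa were measured as products of granular convoluted tubules. Of these 11 genes 4 rose and 0 fell, Klk1b1, Klk1b5, Klk1b16 and Klk1b21, and without the trend Klk1b24 rose as well. This was 36.4% of the list higher, and 45.5% without the trend, beside 3.26% and 2.09% of all genes. The median log2 fold change of the 11 genes was 0.64, and 1.00 without the trend, beside 0.05 and 0.00 over all genes. The genes are close copies, and a probe set may read several of them, so that values of single members are uncertain. To show how alike they are, a stretch upstream of the transcription start is given for the 5 that rose in either test, from RefSeq (GRCm38.p6, plus strand). It is the stretch that ends at the start of Klk1b21, with the parts of the other 4 genes that align to it. The windows are chr7:44188101-44188200 for Klk1b24, chr7:44102192-44102291 for Klk1b21, chr7:44216325-44216426 for Klk1b5, chr7:44137146-44137242 for Klk1b16 and chr7:43966614-43966713 for Klk1b1. Capitals mark bases that differ from, or are absent in, the window of Klk1b24.
Klk1b24: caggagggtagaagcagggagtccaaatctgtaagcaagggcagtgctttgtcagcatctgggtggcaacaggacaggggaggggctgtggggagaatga
Klk1b21: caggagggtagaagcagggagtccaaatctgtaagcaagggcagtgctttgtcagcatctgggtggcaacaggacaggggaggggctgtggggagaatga
Klk1b5: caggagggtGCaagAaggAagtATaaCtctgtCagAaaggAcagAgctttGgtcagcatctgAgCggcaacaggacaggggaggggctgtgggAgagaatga
Klk1b16: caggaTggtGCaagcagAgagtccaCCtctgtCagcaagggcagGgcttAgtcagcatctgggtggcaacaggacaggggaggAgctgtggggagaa
Klk1b1: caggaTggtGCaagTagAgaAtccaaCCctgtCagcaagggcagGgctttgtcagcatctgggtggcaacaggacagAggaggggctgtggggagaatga

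Klk1b21 and Klk1b24 were identical over these 100 bases, and 97.7% alike over the 215 bases aligned of the 250 upstream. Klk1b1 had 89 and Klk1b16 and Klk1b5 had 87 bases identical to Klk1b24. The androgen receptor motif, AGAACA and TGTTCT with 3 bases between them, searched on both strands from 250 bases before to 50 after each start, was in 0 of the 11 tubule products and in 3 of 32851 promoters (0.00913%).

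Klk1b5 had log2 signals of 6.81, 7.47, 7.21, 7.40 and 7.42 in the 5 mice at 4 weeks and of 9.89, 9.36, 8.82, 9.50 and 7.51 at 8 weeks. All mice at 8 weeks were above those at 4 weeks, but mouse 5 at 8 weeks only by a small margin. The rise without the trend was 2.32 (standard error, SE, 0.29, limma adjusted p = 0.000293), larger than the 1.76 of the values as deposited (adjusted p = 0.0262). Its call was lost as deposited when mouse 4 or 5 at 4 weeks or mouse 3 at 8 weeks was left out, although the fold change stayed between 1.54 and 2.13 in the 10 fits that left out a mouse.

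Klk1b21 had 6.36, 7.40, 7.03, 6.66 and 6.79 at 4 weeks and 8.52, 8.08, 7.78, 8.68 and 7.62 at 8 weeks. The ages did not overlap, and the rise was 1.75 without the trend (SE 0.29, limma adjusted p = 0.00429). Klk1b1 had 5.83, 5.88, 5.75, 5.64 and 5.67 at 4 weeks and 6.61, 7.43, 6.92, 7.39 and 5.87 at 8 weeks. Here mouse 5 at 8 weeks lay just below mouse 2 at 4 weeks, so that the ages overlapped. Without the trend the rise was 1.30 (SE 0.27, limma adjusted p = 0.0128).

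Klk1b16 had 7.22, 7.06, 6.66, 7.14 and 7.90 at 4 weeks and 9.84, 9.12, 8.69, 9.99 and 6.87 at 8 weeks, so that 4 of 5 mice at 8 weeks lay above all at 4 weeks and mouse 5 did not. Its rise was 2.29 without the trend (SE 0.30, limma adjusted p = 0.000467). Klk1b24 had 6.17 to 6.33 at 4 weeks and 6.58 to 7.64 at 8 weeks. It did not pass as deposited (log2 fold change 0.85, limma adjusted p = 0.0771) but did without the trend (1.08, adjusted p = 0.0212).

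Egfbp2, a kallikrein that binds epidermal growth factor, was named after its values were seen and is not among the 11 tubule products. It had 8.54, 9.37, 8.88, 8.57 and 9.38 at 4 weeks and 9.97, 10.59, 10.46, 10.43 and 8.85 at 8 weeks, with mouse 5 at 8 weeks inside the range of 4 weeks. The log2 fold change was 1.11 as deposited (limma adjusted p = 0.0508) and 1.76 without the trend (adjusted p = 0.00475). Klk1, the tissue kallikrein proper, moved by 0.02 as deposited (limma adjusted p = 0.973). Without the trend its fold change was also positive and it was not called. It was bright at both ages, with 12.32 to 12.98 at 4 weeks and 10.90 to 13.46 at 8 weeks.

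Klk1b8, Klk1b11 and Klk1b27 had positive fold changes of 0.47, 0.25 and 0.64 that did not pass the test (limma adjusted p = 0.346, 0.703 and 0.341). Egf had 8.25 to 9.60 at 4 weeks and 7.21 to 9.40 at 8 weeks, with overlapping values (log2 fold change -0.38, limma adjusted p = 0.518), and Tgfa had -0.52 (limma adjusted p = 0.144). Thus these 3 kallikreins, Klk1 and the 2 growth factors passed in neither test with 5 mice per age. Without the trend 10 of the 11 tubule products, among them all 9 kallikreins, had a positive fold change.

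Mouse 5 was the lowest of the mice at 8 weeks in 9 of the 9 kallikreins. Its array also had the narrowest spread of signal. With the spread as a covariate, Klk1b5, Klk1b16, Klk1b24 and Egfbp2 were 4 of the 7 genes that were higher, and the median of the tubule products was 1.38. With Amy1 as a covariate none of the kallikreins passed, and the median of the list was 0.76. Means of Klk1b5 at 12 and 16 weeks were 10.67 and 9.26, and each of the 9 kallikreins had its highest mean at 12 weeks.

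**Figure D3:**
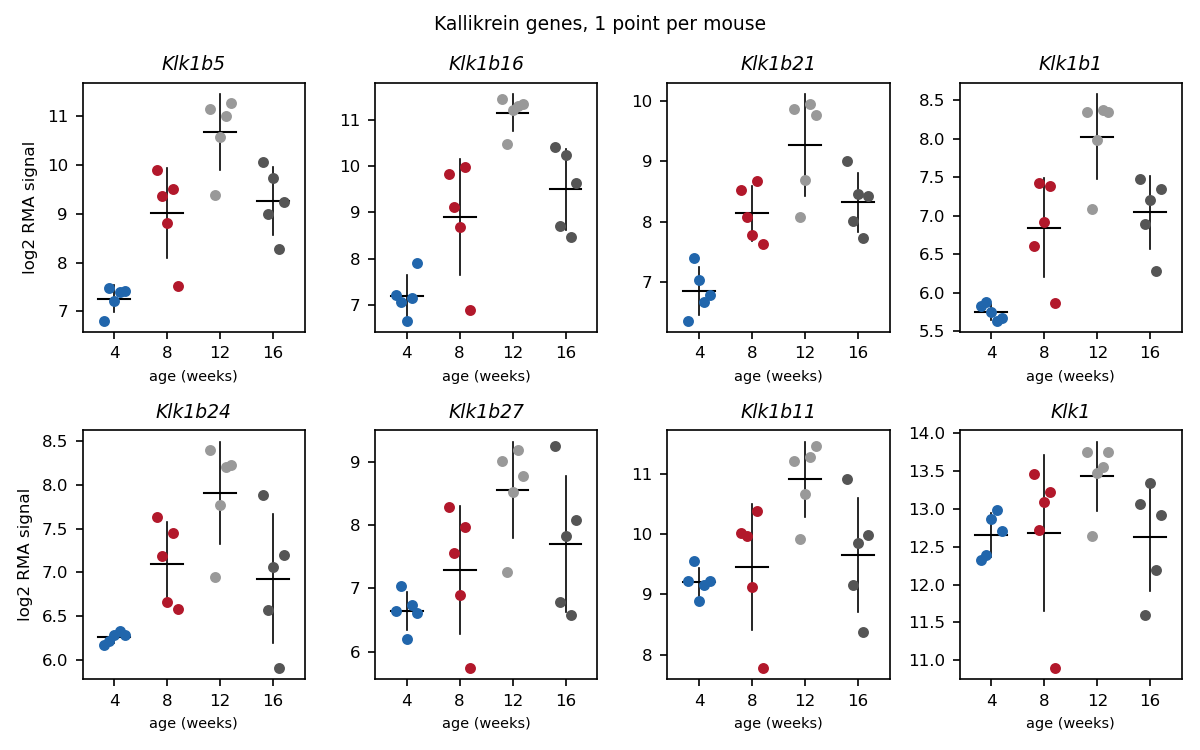
Log2 RMA signal (vertical axis) of 8 kallikrein genes by age in weeks, with single mice as points, a bar at the mean and a line of 1 SD to either side (n = 5 mice). Klk1b5 lay at 6.81 to 7.47 at 4 weeks and 7.51 to 9.89 at 8 weeks, and the lowest point at 8 weeks is mouse 5 in each plot.

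Many genes of serine synthesis and of the amino acid response fell. The amino acid response is the programme of the transcription factor ATF4, which raises amino acid synthesis, import and tRNA charging when amino acids are scarce or when proteins misfold. Of 33 genes of serine and one carbon metabolism and other ATF4 targets, 18 fell and 1 rose, and 17 fell and 0 rose without the trend. This was 54.5% of the list lower, beside 4.13% of all genes. The median log2 fold change was -1.13, and -0.83 without the trend. It was -0.63 with signal spread as a covariate and -0.96 with Amy1 as a covariate. Of the 18 genes that fell, 17 also did so without the trend and 12 had values that did not overlap between the ages, beside 34.0% without overlap among all genes called lower.

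Psat1, the transaminase of serine synthesis, had log2 signals of 7.37, 7.13, 7.90, 8.45 and 8.40 in the 5 mice at 4 weeks and of 6.54, 5.04, 5.10, 6.15 and 4.84 at 8 weeks. All mice at 8 weeks lay below all at 4 weeks. Its fall without the trend was 2.24 on the log2 scale (SE 0.32, limma adjusted p = 0.00094), and the fold change stayed between -2.57 and -2.14 whichever mouse was left out. Psph, the phosphatase that completes serine synthesis, had 6.15, 5.44, 5.70, 5.85 and 6.93 at 4 weeks and 4.65, 5.12, 3.54, 4.72 and 4.62 at 8 weeks. It fell by 1.48 (SE 0.26, limma adjusted p = 0.0158).

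Phgdh, the dehydrogenase at the first step of this pathway, fell by 0.53 (limma adjusted p = 0.0352) but had 0.07 without the trend (adjusted p = 0.882). Its call thus rested on the trend. Mthfd2, which carries one carbon units in mitochondria, had 8.35, 8.14, 8.46, 9.09 and 9.25 at 4 weeks and 7.36, 7.26, 6.77, 7.09 and 6.72 at 8 weeks. It fell by 1.62 (SE 0.23, limma adjusted p = 0.00309), and 1.27 without the trend (adjusted p = 0.000293).

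Slc7a5, the light chain of the importer of large neutral amino acids, had 8.99, 8.50, 9.27, 9.51 and 9.70 at 4 weeks and 8.01, 7.40, 7.11, 7.46 and 6.47 at 8 weeks. There was no overlap, and it fell by 1.90 (SE 0.27, limma adjusted p = 0.00369) and by 1.48 without the trend (adjusted p = 0.000255). Gpt2, the mitochondrial alanine transaminase, fell by 2.11 (SE 0.42, limma adjusted p = 0.0185). Ddit4, an inhibitor of mTORC1 signalling, had 8.50, 7.77, 8.20, 9.10 and 9.98 at 4 weeks and 7.73, 7.15, 5.61, 6.87 and 4.91 at 8 weeks, and fell by 2.26 (limma adjusted p = 0.0231). Chac1, which degrades glutathione, had 9.25, 8.82, 8.48, 10.49 and 9.73 at 4 weeks and 9.02, 7.05, 6.66, 7.14 and 7.27 at 8 weeks. It fell by 1.92 (limma adjusted p = 0.0215), with mouse 1 at 8 weeks inside the range of 4 weeks. Slc7a11, the cystine importer, rose by 0.51 as deposited (limma adjusted p = 0.0381) and had 0.42 without the trend (adjusted p = 0.0513).

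Aminoacyl-tRNA synthetases, which load tRNAs with amino acids and are in part ATF4 targets, moved in the same direction. Of 18 measured, 9 fell and 1 rose, and 7 fell and 1 rose without the trend, with medians of -0.89 and -0.57, and -0.31 with signal spread as a covariate. Tars, of threonine, had 6.39, 6.33, 7.08, 6.92 and 8.14 at 4 weeks and 5.20, 5.67, 4.69, 5.73 and 4.36 at 8 weeks, with no overlap. It fell by 1.84 (SE 0.33, limma adjusted p = 0.0158) and was the synthetase that also passed with signal spread as a covariate. Gars, of glycine, fell by 1.87 and Iars, of isoleucine, by 1.49 (limma adjusted p = 0.0246 and 0.0307). Farsa, a subunit for phenylalanine, rose by 0.69 (limma adjusted p = 0.0399), although 3 of its 4 probe sets, and not all, had this sign.

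The core of the element that ATF4 binds with C/EBP proteins, TGATGCAA, was searched on both strands from 250 bases before to 50 after the start of each gene with a RefSeq promoter. It was in 294 of 32851 promoters (0.895%). Among serine and ATF4 genes 7 of 29 held it, 1 of the 16 genes lower in either test (Chac1) and 6 that were not lower. Among synthetases 4 of 12 held it, of which Aars, Iars and Tars were lower. The match and up to 20 bases on either side are shown for Chac1, Tars, Herpud1 and Phyh, which fell in these groups or in those below. The matches of Aars and Iars are not shown, and no count of matches is given for the peroxisomal list of Phyh. The motif is in capitals as it reads on the strand of the gene (GRCm38.p6). The windows are chr2:119351029-119351076 (plus strand) for Chac1, chr15:11399659-11399693 (minus) for Tars, chr8:94386297-94386344 (plus) for Herpud1 and chr2:4918808-4918855 (plus) for Phyh.
Chac1: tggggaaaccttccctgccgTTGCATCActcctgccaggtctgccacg
Tars: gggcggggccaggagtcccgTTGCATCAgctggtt
Herpud1: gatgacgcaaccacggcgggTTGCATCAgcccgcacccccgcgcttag
Phyh: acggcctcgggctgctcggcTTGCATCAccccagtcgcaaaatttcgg

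Genes of protein folding in the endoplasmic reticulum serve the secretory load of the gland. Of 35, 7 fell and 0 rose, and 9 fell and 1 rose without the trend, with medians of -0.81 and -0.62. The median was -0.11 with signal spread as a covariate. Pdia3, a disulfide isomerase, had 6.36, 6.83, 8.26, 7.36 and 8.49 at 4 weeks and 4.80, 5.31, 5.11, 6.70 and 4.52 at 8 weeks. Only mouse 4 at 8 weeks overlapped with 4 weeks, and the fall was 2.17 (SE 0.43, limma adjusted p = 0.0185), although 1 of its 2 probe sets had the other sign. Herpud1, which helps to degrade misfolded proteins, had 9.33, 9.63, 10.10, 10.71 and 11.35 at 4 weeks and 8.77, 8.31, 8.26, 9.21 and 6.56 at 8 weeks, without overlap. It fell by 2.00 (SE 0.47, limma adjusted p = 0.0268).

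Manf, a secreted stress protein, fell by 1.68 (limma adjusted p = 0.0423). Hspa5, the main chaperone of the compartment, had -1.58 and did not pass (limma adjusted p = 0.0691), and Hsp90b1 had -1.51 (adjusted p = 0.0507). Hyou1, a partner of Hspa5, rose without the trend (1.07, limma adjusted p = 0.0396) but not as deposited (0.46, adjusted p = 0.237). The element to which ATF6 binds with NF-Y, CCAAT and CCACG with 9 bases between them, was in 10 of 30 promoters of the list and in 39 of 32851 in all (0.119%). Of these 10 genes Creld2 and Hsp90b1 were lower, both without the trend only, and 8 were not lower. Their matches, in capitals, lie at chr15:88819500-88819558 (plus strand) for Creld2 and at chr10:86705618-86705676 (minus strand) for the one of Hsp90b1 farther from its start.
Creld2: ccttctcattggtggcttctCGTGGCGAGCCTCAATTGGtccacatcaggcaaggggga
Hsp90b1: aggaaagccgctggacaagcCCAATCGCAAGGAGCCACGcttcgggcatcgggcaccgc

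The translocon and the vesicle coats, which move secretory proteins into and out of the endoplasmic reticulum, had 12 of 36 genes lower and 0 higher, and 11 lower without the trend. Their median was -1.02, -0.56 without the trend and -0.15 with signal spread as a covariate. Lower genes made up 33.3% of the list, and 30.6% without the trend, beside 4.13% and 5.08% of all genes. Sec13, of the COPII coat, had 6.46, 6.66, 7.03, 7.21 and 7.70 at 4 weeks and 5.96, 5.85, 5.00, 6.33 and 4.18 at 8 weeks. The ages did not overlap, and it fell by 1.55 (SE 0.31, limma adjusted p = 0.0185). Ssr4 and Spcs1, of the translocon and the signal peptidase, fell by 1.85 and 1.94 (limma adjusted p = 0.0359 and 0.0391). Sec61a1, the channel itself, had -0.45 (limma adjusted p = 0.471).

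The medians of the 2 lists of respiratory and ribosomal genes were smaller in size without the trend but stayed negative. Oxidative phosphorylation, the respiratory chain of mitochondria, had a median of -0.83 over 74 genes as deposited, -0.36 without the trend and 0.18 with signal spread as a covariate. Of these genes 5 fell as deposited, among them Atp5b of the ATP synthase (1.73, limma adjusted p = 0.035), and 6 without the trend. This was 6.76% and 8.11% of the list, beside 4.13% and 5.08% of all genes. Cytosolic ribosomal proteins had medians of -0.70, -0.26 and 0.14 in the same order over 50 genes, of which 1 fell as deposited, and 5 fell and 1 rose without the trend. The sign of the median turned with the covariate in both groups, as it did in 15 of the 40 lists examined.

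Translation factors and nascent chain genes had a median of -1.05 over 28 genes, -0.59 without the trend and -0.12 with the covariate. In both tests 6 were lower and 0 higher, or 21.4% lower beside 4.13% of all genes and 5.08% without the trend. Eif2s2, the beta subunit of the initiation factor that the amino acid response acts on, had 8.91, 8.88, 9.87, 9.69 and 10.11 at 4 weeks and 8.06, 7.33, 7.14, 8.52 and 6.75 at 8 weeks. It fell by 1.93 (SE 0.32, limma adjusted p = 0.01) and by 1.44 without the trend (adjusted p = 0.000293), and 5 of its 6 probe sets had this sign. Naca, which shields new protein chains at the ribosome, fell by 2.02 (limma adjusted p = 0.0265).

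**Figure D4:**
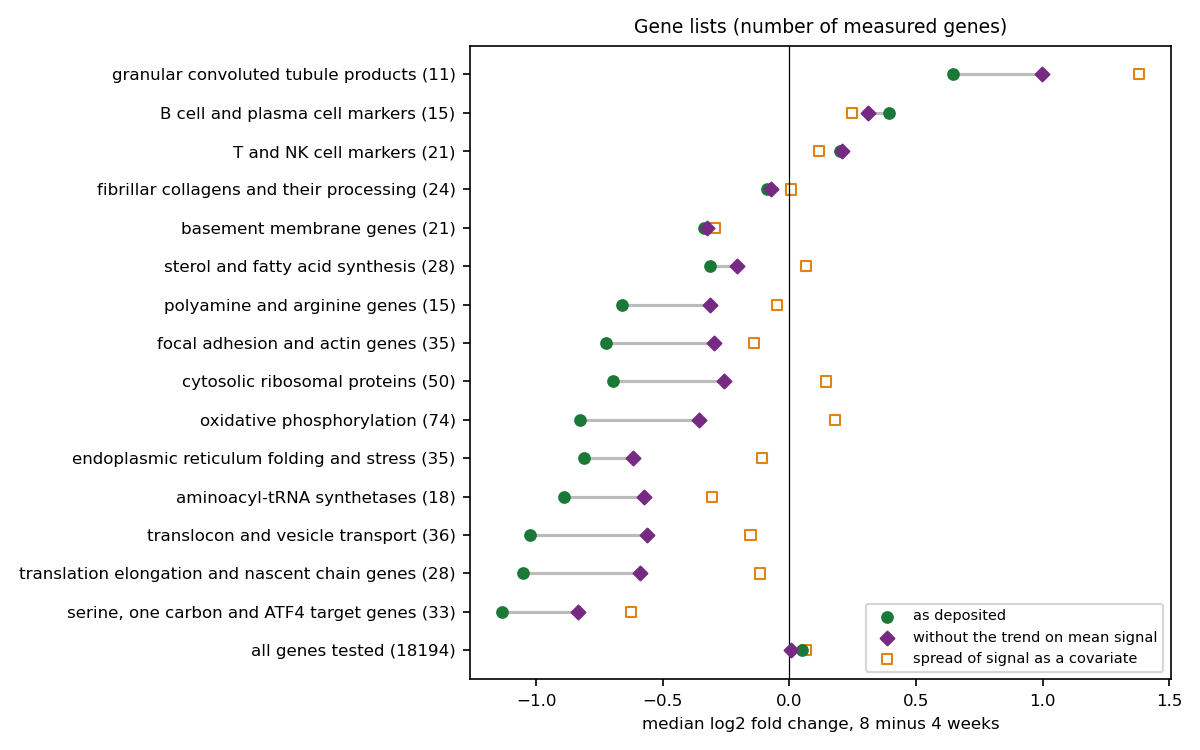
Median log2 fold change from 4 to 8 weeks (horizontal axis) of 15 lists of genes and of all genes tested, with the number of genes in brackets. Circles are values as deposited, diamonds values without the trend on mean signal and open squares values with signal spread as a covariate. The serine and ATF4 list lies at -1.13, -0.83 and -0.63, whereas oxidative phosphorylation moves from -0.83 to 0.18.

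Basement membranes underlie the epithelium of acini and ducts. Of 21 of their genes, 5 fell and 1 rose, and 6 fell and 0 rose without the trend. This was 23.8% of the list lower, and 28.6% without the trend, beside 4.13% and 5.08% of all genes. The median was -0.34 as deposited, -0.33 without the trend and -0.29 with the covariate. The 5 genes that fell did not overlap between the ages, beside 34.0% without overlap among all genes called lower. Col4a1, the main chain of collagen IV, had 7.93, 7.93, 8.44, 8.00 and 8.42 at 4 weeks and 6.94, 6.53, 6.76, 6.99 and 6.28 at 8 weeks. It fell by 1.45 (SE 0.29, limma adjusted p = 0.0185) and was, with Ret, 1 of the 2 genes (0.011%) that passed when only the arrays of 4 and 8 weeks were fitted.

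Col4a2, which pairs with Col4a1 in the same trimer, fell by 1.38 (limma adjusted p = 0.0185). Col4a5 fell by 1.17 and Nid1, a linker of the basement membrane, by 0.98 (limma adjusted p = 0.017 and 0.0185), although 1 of 2 probe sets of the former and 1 of 3 of the latter had this sign. Col4a3 rose by 0.46 as deposited (limma adjusted p = 0.042).

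Fibrillar collagens form the fibres of the stroma. Of 24 of these genes and of those that process them 3 fell, Col3a1, Col1a2 and Col5a2, and 2 fell without the trend. This was 12.5% and 8.33% of the list, beside 4.13% and 5.08% of all genes. The median was -0.09. Col3a1, of reticular fibres, had 9.40, 9.29, 9.05, 10.48 and 10.21 at 4 weeks and 7.47, 7.64, 6.95, 8.41 and 6.92 at 8 weeks. The ages were apart, and without the trend it fell by 1.75 (SE 0.24, limma adjusted p = 0.000677). Col1a2 fell by 1.17 (limma adjusted p = 0.0392), whereas Col1a1 had -0.64 (limma adjusted p = 0.0646).

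Postn, a matrix protein of growing and healing tissue, had 7.83, 7.63, 7.47, 8.13 and 8.08 at 4 weeks and 6.17, 6.85, 5.99, 6.79 and 6.10 at 8 weeks. Without the trend it fell by 1.24 (SE 0.17, limma adjusted p = 0.00094), and the mice of both ages were apart. In the list of other stromal matrix genes, Lum fell by 0.76 and Mfap2, a microfibril protein, rose by 0.57 (limma adjusted p = 0.0381 and 0.0477). Among 16 fibroblast markers 1 fell, Col15a1, and 0 rose, or 6.25% lower beside 4.13% of all genes.

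Focal adhesion and actin genes had 8 of 35 lower and 0 higher, and 10 lower without the trend, with medians of -0.73 and -0.30, and -0.14 with signal spread as a covariate. Lower genes made up 22.9% and 28.6% of the list, beside 4.13% and 5.08% of all genes. Septin7, a filament protein of the cell cortex, had 7.18, 7.43, 8.14, 8.26 and 8.06 at 4 weeks and 6.12, 6.27, 6.26, 6.99 and 6.17 at 8 weeks, without overlap. It fell by 1.22 without the trend (SE 0.19, limma adjusted p = 0.0029), and 3 of its 3 probe sets had this sign. Rac1, a GTPase that shapes actin, fell by 0.79 without the trend (limma adjusted p = 0.0459).

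Of 37 genes of branching and epithelial lineage 2 fell and 0 rose, Ret and Spry2, or 5.41% lower beside 4.13% of all genes. Without the trend 1 fell, Ret, or 2.70% beside 5.08%, so that the share of the list lay near that of all genes. Ret, the receptor for glial cell line-derived neurotrophic factors, which acts in nerve cells and in branching epithelia, had 6.69, 6.34, 6.86, 7.15 and 7.05 at 4 weeks and 4.84, 5.36, 5.54, 5.47 and 5.21 at 8 weeks. All mice at 8 weeks lay below all at 4 weeks, and the fall without the trend was 1.48 (SE 0.19, limma adjusted p = 0.000293). Spry2, an inhibitor of receptor tyrosine kinase signalling, fell by 0.65 as deposited (limma adjusted p = 0.0449) and had -0.53 without the trend (adjusted p = 0.0605). Dusp4, a phosphatase of MAP kinases, was named after its values were seen. It had 4.91, 5.06, 5.44, 4.76 and 6.40 at 4 weeks and 3.36, 3.88, 3.56, 3.95 and 3.84 at 8 weeks, and fell by 1.60 (SE 0.24, limma adjusted p = 0.00445). It was part of none of the lists.

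**Figure D5:**
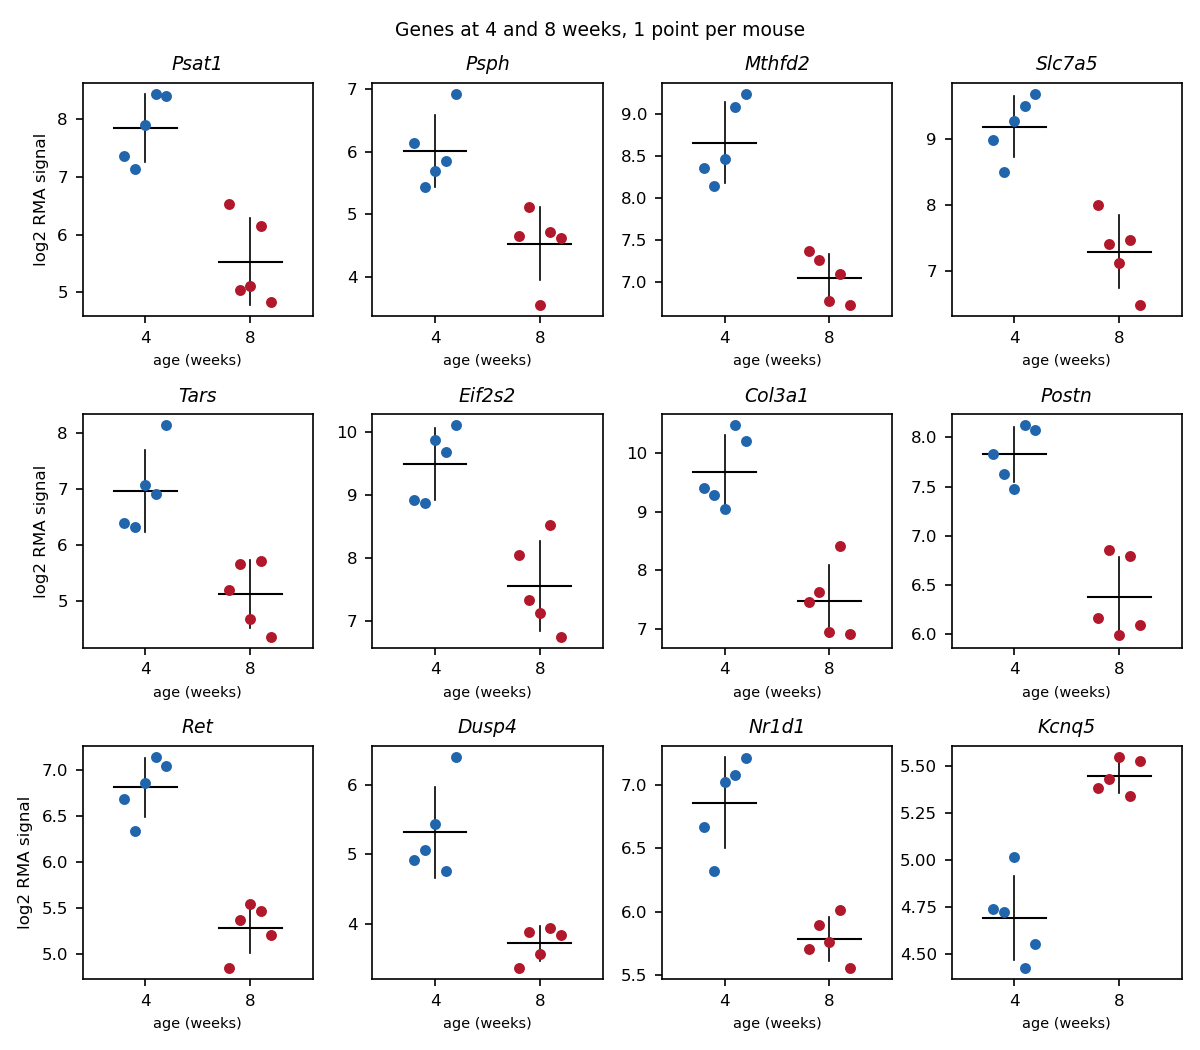
Log2 RMA signal (vertical axis) of 12 genes at 4 weeks (blue) and 8 weeks (red), with 1 point per mouse, a bar at the mean and a line of 1 SD to either side (n = 5 mice). The ages do not overlap in any of the 12 genes, and Kcnq5 is the 1 that was higher at 8 weeks, at 5.34 to 5.55 against 4.42 to 5.02.

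Of 42 genes of the cell cycle and DNA replication 3 fell and 0 rose, Mki67, Pcna and Rrm1, and the median was -0.05. In both tests 7.14% of the list were lower, beside 4.13% of all genes and 5.08% without the trend. The share of the list thus lay little above that of all genes. Mki67, a mark of dividing cells, had 6.12, 6.02, 5.98, 6.08 and 6.41 at 4 weeks and 5.60, 5.30, 5.07, 5.61 and 5.52 at 8 weeks. The ages did not overlap, and it fell by 0.70 (SE 0.16, limma adjusted p = 0.0264). Pcna, the clamp of DNA polymerase, fell by 1.16 (limma adjusted p = 0.0207). Top2a and Cdk1, also high in dividing cells, had 0.40 and -0.25 and did not pass (limma adjusted p = 0.225 and 0.26). H1f2, a linker histone, fell by 2.10 (limma adjusted p = 0.0264), although 2 of its 3 probe sets had this sign.

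Of 27 genes of steroid and thyroid hormones 4 rose and 0 fell, or 14.8% higher beside 3.26% of all genes. Without the trend 2 were higher and 1 lower. Hsd3b2, of the enzyme family that makes progesterone and androstenedione from their precursors, had 6.03, 5.79, 6.26, 5.54 and 5.17 at 4 weeks and 6.64, 6.94, 7.0008, 6.34 and 7.04 at 8 weeks. It did not overlap and rose by 1.04 (SE 0.24, limma adjusted p = 0.0257), or 1.11 without the trend (adjusted p = 0.0242). Hsd3b3 of the same family rose by 0.79 (limma adjusted p = 0.045) and its probe set may also read the transcript of Hsd3b2. Dio2, which activates thyroid hormone, rose by 0.44 and Srd5a3, a polyprenol reductase of the steroid reductase family, by 0.62 (limma adjusted p = 0.0399 and 0.0499). None of these 4 passed with the signal spread or with Amy1 as a covariate.

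Clock genes moved in both directions, 4 of 18 lower and 2 higher, and 4 lower and 1 higher without the trend. As deposited this was 22.2% lower and 11.1% higher, beside 4.13% and 3.26% of all genes. Nr1d1, the repressor REV-ERB alpha, had 6.67, 6.32, 7.02, 7.07 and 7.21 at 4 weeks and 5.71, 5.89, 5.76, 6.01 and 5.55 at 8 weeks, and fell by 1.07 (SE 0.17, limma adjusted p = 0.00535). Its relative Nr1d2 fell by 1.60 (limma adjusted p = 0.0173), with 1 of 2 probe sets of this sign, and Dbp, an output factor of the clock, by 1.52 (limma adjusted p = 0.0287). Bhlhe40 fell by 0.84 and its paralog Bhlhe41 rose by 0.54 (limma adjusted p = 0.0367 and 0.0382). Rora, an activator at the sites of REV-ERB, rose by 0.71 (limma adjusted p = 0.035), although 5 of its 9 probe sets had this sign. The time of day of tissue collection is not given in the labels, and clock time and age cannot be told apart.

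Polyamine and arginine genes had 3 of 15 lower, Azin1, Srm and Sat1, and 4 without the trend, and a median of -0.66, -0.31 without the trend and -0.05 with signal spread as a covariate. Azin1, which spares ornithine decarboxylase from degradation, fell by 1.84 and Srm, the spermidine synthase, by 1.32 (limma adjusted p = 0.0229 and 0.0421). Odc1, the decarboxylase itself and a classic androgen target in other organs, had -0.66 (limma adjusted p = 0.257). Of 28 genes of sterol and fatty acid synthesis 4 fell and 0 rose, Cyp51, Sc5d, Fdft1 and Insig2. In both tests 14.3% of the list were lower, beside 4.13% of all genes and 5.08% without the trend. The median of -0.32 became 0.06 with the covariate. Cyp51 and Sc5d, late enzymes of cholesterol synthesis, fell by 1.17 and 1.39 (limma adjusted p = 0.035 and 0.0309), and Hmgcs1 at its start had -0.90 (limma adjusted p = 0.0911).

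Peroxisomal genes had 6 of 33 lower and 0 higher, and 6 lower and 1 higher without the trend. Their median was -0.23 as deposited, -0.26 without the trend and 0.02 with signal spread as a covariate. In both tests 18.2% of the list were lower, beside 4.13% of all genes and 5.08% without the trend. Phyh, which breaks down phytanic acid, had 8.51, 8.68, 11.92, 8.98 and 12.52 at 4 weeks and 7.30, 8.30, 7.001, 7.94 and 6.62 at 8 weeks. It fell by 2.69 (SE 0.60, limma adjusted p = 0.0248), but mice 3 and 5 at 4 weeks, which were the ones high in Ucp1, stood apart from the other 3. With the Ucp1 signal as a covariate its fold change was -2.32 (limma adjusted p = 0.016). Adipocyte markers had 1 of 11 higher, Retn, and 0 lower, or 9.09% higher beside 3.26% of all genes. Their summed level was 8.87 to 11.1 at 4 weeks and 8.89 to 10.2 at 8 weeks. Adipoq, the defining marker, had 3.13 to 6.89 and 3.56 to 5.77.

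Secreted products of acini and ducts had 1 of 20 lower, Lpo, and 0 higher. The share lower was 5.0% in both tests, near the 4.13% of all genes and the 5.08% without the trend. Lpo, the lactoperoxidase of saliva, had 10.72, 10.76, 11.75, 11.73 and 12.17 at 4 weeks and 10.29, 10.75, 9.39, 10.65 and 8.00 at 8 weeks, and fell by 1.61 with some overlap (limma adjusted p = 0.0449). Smgc, a submandibular product of early life, had -0.82 (limma adjusted p = 0.0526). Bpifa2, the parotid secretory protein, had -3.36 (limma adjusted p = 0.134), a large difference within the spread of the mice. The median of the list was -0.88, and -0.31 without the trend. Of 21 genes of fluid secretion and ion transport, Ano1, the chloride channel of acini, fell by 1.31 (limma adjusted p = 0.0308). Scnn1a, a subunit of the sodium channel of ducts, was higher without the trend (0.81, limma adjusted p = 0.0318). Each was 4.76% of the list, beside 4.13% of all genes lower as deposited and 2.09% higher without the trend. Aqp5, the water channel of acini, had -0.63 (limma adjusted p = 0.293). Of 10 autonomic receptors 0 were called by limma as deposited or without the trend (before adjustment, at 0.05, 2 were higher and 0 lower), with Chrm1 at 0.40 and Chrm3 at 0.09 (limma adjusted p = 0.0959 and 0.698).

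Calls among markers of immune cells differed between the lists. Of 15 B cell and plasma cell markers 0 were called by limma (before adjustment, at 0.05, 6 were higher and 0 lower). Of all genes 16.9% were higher and 15.5% lower by that measure. The median of the list was 0.39, 0.31 without the trend and 0.25 with signal spread as a covariate. Its summed level was 9.25 to 9.55 at 4 weeks and 9.66 to 10.04 at 8 weeks, without overlap. Igha, the heavy chain of IgA, had 4.80 to 5.86 at 4 weeks and 5.71 to 7.95 at 8 weeks, and did not pass (log2 fold change 1.20, limma adjusted p = 0.196). Of 21 T and NK cell markers 3 rose, Gzmb, Klrd1 and Cd3e, by 0.68, 0.79 and 0.41 (limma adjusted p = 0.0309, 0.035 and 0.0446), and 0 fell. In both tests 14.3% of this list were higher, beside 3.26% of all genes and 2.09% without the trend. Gzmb, a protease of cytotoxic granules, had 3.84 to 4.60 at 4 weeks and 4.61 to 5.14 at 8 weeks. The summed level of this list was 9.67 to 10.1 and 10.2 to 10.4. Cd68 of macrophages fell by 0.62 (limma adjusted p = 0.0477), the 1 of 21 macrophage and dendritic cell markers that passed. This was 4.76% of that list, near the 4.13% of all genes. Duct, endothelial, nerve and blood markers had 0 genes called by limma as deposited, and 1, 1, 0 and 2 at an unadjusted p under 0.05, the first 2 lower and the last 2 higher. Myh11, of smooth muscle and myoepithelium, fell by 1.12 (limma adjusted p = 0.0414), with 1 of 2 probe sets of this sign.

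Other genes with large changes came from several lists or from none. Kcnq5, a potassium channel named after its values were seen, had 4.74, 4.72, 5.02, 4.42 and 4.55 at 4 weeks and 5.39, 5.43, 5.55, 5.34 and 5.53 at 8 weeks. Its rise was small but regular, 0.76 (SE 0.12, limma adjusted p = 0.00445) and 0.66 without the trend. A830082N09Rik, a transcript of unknown role, had 3.60, 3.98, 3.89, 4.02 and 3.38 at 4 weeks and 5.03, 4.70, 4.97, 4.70 and 5.04 at 8 weeks, and rose by 1.12 (limma adjusted p = 0.00445).

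Myf6, a muscle regulatory factor, rose by 0.93 and was the 1 of 24 skeletal muscle markers that passed (limma adjusted p = 0.0173). This was 4.17% of that list, near the 3.26% of all genes. Defa3, a defensin of the intestine, rose by 0.94, and Ifi209, an interferon-inducible gene, by 0.94 as well (limma adjusted p = 0.0173 and 0.0158). Of 34 interferon response genes Ifi209 alone passed as deposited, or 2.94% higher beside 3.26% of all genes. Krtap5-5, a keratin-associated protein of hair, rose by 1.00, Dmtf1, a transcription factor, by 1.01 and Tmem59, a regulator of autophagy, by 1.06 (limma adjusted p = 0.0263, 0.0247 and 0.0277). The lists of muscle, hair and antimicrobial genes were dim, with median signals of 4.26, 4.44 and 4.78 beside 5.49 over all genes.

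Without the trend Plcb1, a phospholipase C below G protein-coupled receptors, rose by 1.21, Map3k12, a kinase of neurons, by 1.30, Fbxw16 by 1.27, Psg28 by 1.23 and Csdc2 by 1.37 (limma adjusted p = 0.0118, 0.0327, 0.0347, 0.0217 and 0.0472). Of these, Map3k12 and Psg28 did not pass as deposited (limma adjusted p = 0.144 and 0.106). Plcb1 had 3 of 5 and Csdc2 2 of 3 probe sets of this sign.

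Among falls, 2310057J18Rik, also bright, had 11.52, 10.80, 12.01, 12.12 and 11.46 at 4 weeks and 9.23, 9.75, 8.04, 10.57 and 7.21 at 8 weeks. It fell by 2.62 as deposited (limma adjusted p = 0.0383) and did not pass without the trend (-2.02, adjusted p = 0.0551). Asph, an aspartate hydroxylase of the endoplasmic reticulum, fell by 2.11 (limma adjusted p = 0.0286), and 3 of its 6 probe sets had a negative sign. Mtx2, of the import machinery of mitochondria, Eif3m, of an initiation factor, Galnt12, a starter of mucin-type glycans, Golm2, of the Golgi, and Nipsnap2, of mitochondria, had log2 fold changes of -1.83, -1.84, -1.84, -2.02 and -1.76 without the trend (limma adjusted p = 0.00733, 0.00677, 0.0174, 0.0301 and 0.0202). Nipsnap2 had 1 of 2 probe sets of this sign.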

How the data were processed

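Total RNA of each gland was hybridised to an Affymetrix whole-genome mouse array. The authors deposited log2 signals of 45101 probe sets after RMA; which arrays were normalized together is not given in the sources used here. Of these probe sets 34958 carried 1 gene symbol, 932 several and 9211 none in the annotation. Each of 18194 genes was represented by its brightest single-symbol probe set (mean of 20 arrays). The test was limma 3.58.1 (R 4.3.3), with age as factor over all 20 arrays and Benjamini-Hochberg adjustment over all genes (threshold 0.05). The trend on mean signal was removed per array by lowess (span 0.3) of its deviation from the gene's mean. The steps were tested on simulated data. The members, the 39 lists and the alternatives were chosen with earlier results of these data known, and the lists served for counts and medians only. Named genes were the 10 largest non-overlapping rises and falls in both tests, called list members (at most 6 per list and direction), the first 4 members of each list described, the sex chromosome genes and Klk1b5, Col3a1, Postn, Psat1 and Ret; others are said to be named after their values were seen. Motifs were searched in RefSeq promoters (GRCm38.p6). The number of arrays limits the precision.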

Additional observations from a re-analysis of the deposited data

Results flagged for a closer look

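Among 96 groups of 5 mice tested for a single value far from the others, 3 held one, and chance gives about 1 in 20. Eif2s3y, a Y-linked gene near the bottom of the range, was 2.0751 in mouse 5 at 4 weeks, with the nearest other mouse at 2.386. Tmem59 was 5.289 in the same mouse 5 at 4 weeks, with the nearest at 6.1372, and its difference between the ages rested in part on this mouse. Smr3a, a salivary product, was 11.6226 in mouse 2 at 8 weeks, with the nearest at 7.3474, and this mouse was also the highest at 8 weeks in Amy1, Cst10 and Bpifa2. No cause of these values was tested.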

How the results depend on the processing

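For the 41 named genes followed across settings, calls were kept, lost or gained, and no reversed call was recorded. Phgdh, which was called lower as deposited, had a positive log2 fold change without the trend that did not pass. The medians of 15 of 40 lists changed sign once signal spread was a covariate (oxidative phosphorylation from -0.83 to 0.18, ribosomal proteins from -0.70 to 0.14) and those of 2 without the trend. Counts are given as higher and lower genes by limma, against 593 and 752 as deposited and 380 and 924 without the trend. As deposited they were 2 and 9 with Amy1 as a covariate, 343 and 485 with Dcpp3, 269 and 372 with Ucp1 and 7 and 9 with the spread of signal, 39 and 171 with array weights, 1025 and 1226 with each probe set on its own, and 0 and 2 (Col4a1 and Ret) with only the 2 ages fitted (2604 and 2475 at an unadjusted p under 0.05). Higher genes were 384 with cyclic loess, 349 with a filter on dim genes and 938 with the trend subtracted from fold changes. Without the trend they were 10 and 91 with Amy1, 182 and 590 with Ucp1, 35 and 281 with array weights, 575 and 1504 with each probe set and 5 and 18 with only the 2 ages, and 241 higher with Dcpp3. Leaving out 1 mouse gave 2 to 1314 higher and 12 to 1380 lower genes, and 19 to 879 and 143 to 1447 without the trend. In all 20 genes passed without mouse 4 and 14 without mouse 5 at 4 weeks, and 17, 2694 and 22 without mouse 3, 4 and 5 at 8 weeks. Without both mice numbered 5 there were 2 higher (Klk1b5 and Klk1b16) and 5 lower genes, and 6 and 18 without the trend. The covariates, this fit and the probe sets without the trend were chosen after seeing the data. With the replicate numbers as a block 66 genes were higher and 179 lower, and 132 and 506 without the trend; the numbers do not pair the mice, as deviations of same-numbered mice correlated at -0.37, -0.11, 0.45, 0.05 and -0.56 and 1 of 5 matched its own number best. Of single genes' values 732 stayed on their side of the threshold, 271 lost and 15 gained a call, and of list medians 984 stayed within the spread between mice and 30 did not. The causes were not tested.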

Other observations

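Proteasome genes, a list of 31 chosen after values were seen, had 8 members lower and 1 higher at 8 weeks, and 10 lower and 1 higher without the trend. Lower genes made up 25.8% and 32.3% of the list, beside 4.13% and 5.08% of all genes. Psma4, a core subunit, had log2 signals of 6.35, 6.39, 7.13, 6.59 and 7.70 at 4 weeks and of 5.31, 5.25, 4.89, 5.80 and 5.43 at 8 weeks, without overlap, and fell by 1.50 (limma adjusted p = 0.0155). Psmb7, of the catalytic ring, fell by 1.53 (limma adjusted p = 0.0242). The median of the list was -0.76, -0.59 without the trend and 0.02 when the spread of signal was a covariate.

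Apod and Rab17 were chosen after their values were seen, because they passed in the fit that includes each array's spread of signal and not as deposited. Apod, a lipid carrier, had 7.11 to 7.71 at 4 weeks and 7.62 to 8.02 at 8 weeks, with log2 fold changes of 0.38 as deposited (limma adjusted p = 0.117), 0.76 without the trend (adjusted p = 0.00248) and 0.72 with the covariate (adjusted p = 0.041). Rab17, a GTPase of polarised epithelia, had 0.06 as deposited (limma adjusted p = 0.936), 0.35 without the trend (adjusted p = 0.492) and 1.22 with the covariate (adjusted p = 0.015).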
